A study of Mus musculus with 21 samples.

Results

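The mitochondrial ribosomal protein genes are the Mrpl genes, named for the large subunit of the mitochondrial ribosome, and the Mrps genes, named for the small subunit. They were taken from the hippocampal RNA-seq tables by symbol, as every row whose name is Mrpl or Mrps followed by a number and at most 1 letter. This gave 77 of 24411 genes, 48 of the large and 29 of the small subunit, in both tables. All 77 had a mean normalized count of at least 10 in both experiments and were tested among 14162 genes in the transfer experiment and 13939 in the depletion experiment.

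Hippocampus from 1 hemisphere of perfused male wild-type mice was sequenced as polyA-enriched RNA, in 21 samples and 2 experiments. In the transfer experiment, B6.SJL-Ptprca Pepcb/BoyJ recipients of 4 months were given the anti-CD8a antibody on days -11 and -7, so that their own CD8+ T cells were depleted in both groups. CD8+ T cells from spleen and blood of C57BL/6J donors were then injected into the tail vein, from donors of 22 to 28 months (aged T recipients, n = 5) or of 3 to 4 months (n = 6, here the young T recipients). The depletion experiment used mice of 22 to 24 months, of a strain not given in the sources used here, which received the same antibody (n = 5) or the rat IgG2b isotype control LTF-2 (n = 5) every 4 days. The sources used here do not say how many donors were pooled for a recipient or how completely CD8+ T cells were removed. The antibody acts on the whole body, and the RNA is that of the whole hippocampus. Nothing in the labels ties a replicate number in 1 group to a number in another.

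Library totals, recovered as whole reads, were 12361933 to 15055422 for aged T and 11232442 to 14911138 for young T recipients, 9957822 to 12136146 in CD8a antibody mice and 11103024 to 14375029 in IgG2b mice. All 7 fixed markers of hippocampal neurons were detected in every group. So were the markers fixed for all other cell types except CD8+ T cells, so detection alone does not bear out the labelled tissue. The 6 CD8+ T cell markers together had 4 reads for aged T mice and 15 for young T mice, and 28 with the CD8a antibody and 24 with IgG2b. Library 5 of the CD8a antibody group stood apart from the other 4 of its group for these genes, and the depletion results that rest on it are given with and without it.

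Mitochondrial ribosomes translate the few proteins that mitochondrial DNA encodes, all of them core subunits of the respiratory chain and ATP synthase. Their RNAs come from mitochondrial DNA, but every one of their proteins is encoded in the nucleus, made in the cytosol and imported. Many have a counterpart in bacterial ribosomes, and others are found only in mitochondria. Neurons depend on respiration for most of their ATP, and in humans mutations in genes of single mitoribosomal proteins are known to cause encephalopathies such as Leigh syndrome.

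Promoters of these genes are known for binding sites of NRF1, of ETS factors such as GABPA (NRF2) and of YY1, and the 250 bases before the RefSeq start (GRCm38.p6) were searched for each on both strands. NRF1 was searched as GCGC, any 2 bases and GCGC again, ETS as CCGGAAG, and YY1 as AAGATG followed directly by GCGGC. Of 77 members, 68 were in the RefSeq table. The ETS letters were in 17 of the 68 members (25.0%), against 14.3% of 10669 other tested genes and 7.83% of all 27025 symbols. The NRF1 letters were in 10 members (14.7%), against 11.5% of other tested genes. The YY1 letters were in 1 member (1.47%), against 0.497% of other tested genes. Shown are the 120 bases up to the RefSeq start of the 5 members with the smallest p in the transfer experiment among those with a match in that stretch. Capitals mark the NRF1 or ETS letters.
Mrpl9: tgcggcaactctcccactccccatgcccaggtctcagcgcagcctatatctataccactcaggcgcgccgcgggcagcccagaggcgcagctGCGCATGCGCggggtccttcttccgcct
Mrps26: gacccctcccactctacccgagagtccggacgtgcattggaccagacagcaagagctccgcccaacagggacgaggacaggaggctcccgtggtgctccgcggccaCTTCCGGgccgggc
Mrpl57: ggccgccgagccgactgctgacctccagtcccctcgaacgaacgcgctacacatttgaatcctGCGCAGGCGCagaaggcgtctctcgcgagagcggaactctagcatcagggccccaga
Mrpl12: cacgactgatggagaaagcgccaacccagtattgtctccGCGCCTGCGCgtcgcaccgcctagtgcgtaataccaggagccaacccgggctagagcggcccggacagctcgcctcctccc
Mrpl27: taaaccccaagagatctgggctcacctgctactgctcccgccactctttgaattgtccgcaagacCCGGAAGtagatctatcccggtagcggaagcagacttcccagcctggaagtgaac
In Mrpl9, Mrpl57 and Mrpl12 the capitals are an NRF1 match, and in Mrps26 and Mrpl27 an ETS match. The stretches lie on the plus strand, that of Mrpl9 at chr3:94443216-94443335, of Mrps26 at chr2:130563637-130563756, of Mrpl57 at chr14:57826119-57826238, of Mrpl12 at chr11:120484517-120484636 and of Mrpl27 at chr11:94653671-94653790. In the transfer experiment the median log2 difference, aged T minus young T, was 0.20 in the 27 members with any of the motifs and 0.20 in the 41 without. In the depletion experiment the medians, CD8a antibody minus IgG2b, were 0.05 with a match and 0.02 without.

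Every member averaged at least 140.2 normalized counts in the transfer and 141 in the depletion experiment. Per kilobase of transcript, the mean normalized count of large subunit genes lay between 53.2 and 913 in the transfer experiment, with a median of 321. For small subunit genes it lay between 37.3 and 1171, with a median of 247. At the top of the large subunit were Mrpl41, a protein without a bacterial counterpart (913 per kb), and Mrpl20 (842 per kb), a counterpart of bacterial L20. At its bottom were Mrpl32 (56.7 per kb), whose protein is cleaved after import before it joins the ribosome, and Mrpl47 (53.2 per kb). In the small subunit Mrps33 (1171 per kb), Mrps34 (745 per kb) and Mrps18a (716 per kb) were highest, and Mrps16 (54.5 per kb) and Mrps35 (37.3 per kb) lowest. Mutations of Mrps34 and Mrps16 are known causes of mitochondrial disease in humans. The order of levels was nearly the same in the depletion experiment (Spearman's rho across the 77 genes 0.993, a description, since both use the same transcript lengths). The Mrps18a and Mrps34 levels were in the other order there, at 764 and 689 per kb. Neighbours in this order often differed by less than the spread between libraries, whose median coefficient of variation over large subunit genes was 11.9% for aged T and 11.2% for young T recipients. GENCODE names 1 pseudogene each of Mrpl23 and Mrpl48 and 3 of Mrps36, so reads of these genes may be shared with a copy. The lengths used are median transcript lengths of the annotation, so a level per kb is only as good as the annotated length.

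Nearly all members had a higher mean in aged T than in young T recipients, each by a small amount. The log2 difference (aged T minus young T) was above 0 for 76 of 77 members (98.7%), for 48 of 48 of the large and 28 of 29 of the small subunit, against 49% of all genes tested. The median was 0.21 for the large and 0.20 for the small subunit, against -0.00451 over all genes, and single members ranged from -0.03 to 0.40 with standard errors of 0.078 to 0.199. Members have short transcripts, and of the other genes of 500 to 1500 nt 80.8% were above 0 (median 0.15). After the trend of other genes with transcript length was subtracted, the medians were 0.09 for the large and 0.058 for the small subunit, and 58 of 77 members were above 0. No member passed limma at a Benjamini-Hochberg adjusted p of 0.05, where 0% of all genes tested passed (smallest adjusted p of a member 0.600). At an unadjusted limma p of 0.05, 25 of 77 members (32.5%) were higher, 16 of the large and 9 of the small subunit, against 4.29% of all genes. None of the 77 was lower at that p, against 3.96% of all genes. The 25 became 11 without aged T replicate 5 and 16 without young T replicate 4. In the authors' deposited table no member passed the adjusted p either (smallest 0.386), and 27 of 77 had an unadjusted p under 0.05, as did 1478 of the 18323 genes with a p-value there. In bulk RNA, fewer cells of a type and less RNA per cell cannot be told apart.

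Groups overlapped for 76 of 77 members. Only Mrps30 had all 5 aged T libraries above all 6 young T libraries (1.30% of members, against 0.459% of all genes higher without overlap), and no member had the reverse (0.24% of all genes). For 37 members all 5 aged T libraries were above the young T median. For 23 members at least 3 aged T libraries were above the highest young T library, for 21 only 1 was, and for 8 none. The shares of all genes with such an order were not taken, so these counts only describe the members. Of the other genes of 500 to 1500 nt, 80.8% had a log2 difference above 0.

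**Figure D1:**
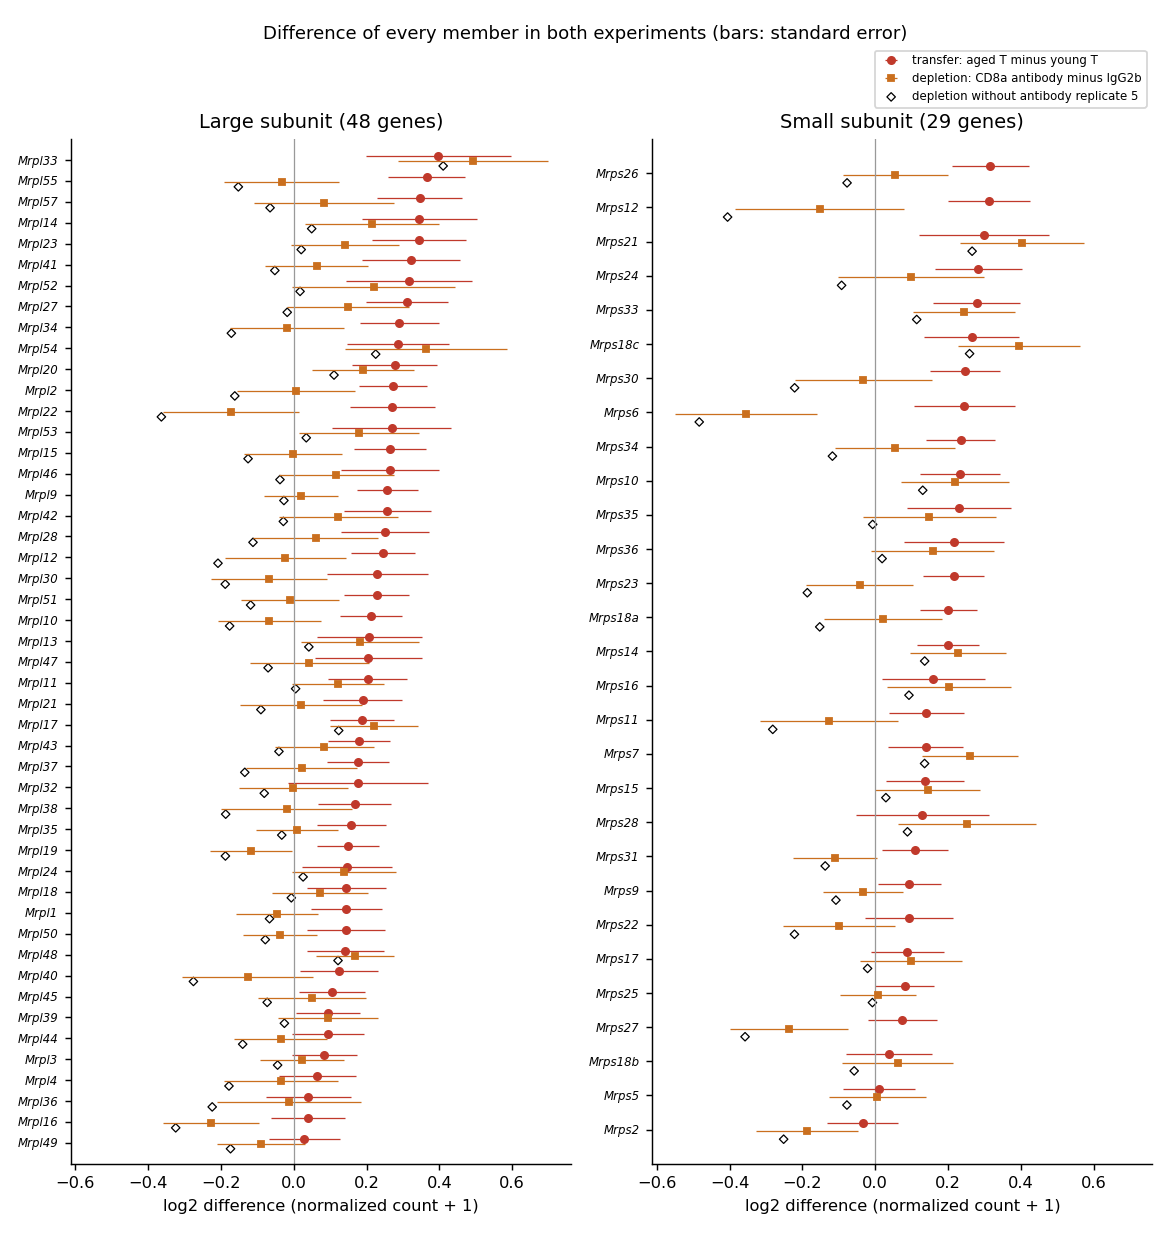
Log2 difference (horizontal axis, log2 of normalized count + 1) of each of the 48 large and 29 small subunit genes, sorted by the transfer experiment. Red circles are aged T minus young T, orange squares CD8a antibody minus IgG2b, both with standard errors, and open diamonds the depletion difference without CD8a antibody replicate 5. The circles lie right of 0 except for Mrps2, while the squares lie on both sides and 55 of 77 diamonds lie left of 0.

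Among large subunit genes, the smallest p belonged to Mrpl55 (chr11:59202486-59206134, plus strand; gene positions are those of GENCODE M21 on GRCm38). Mrpl55 had 327, 269.9, 370.3, 325 and 302 normalized counts in aged T recipients, against a lowest of 222, a median of 239 and a highest of 279 in young T recipients. 4 of the 5 aged T libraries were above every young T library. The means were 319 ± 36.9 normalized counts for aged T and 247 ± 24.9 for young T recipients (n = 5 and 6, SD), a log2 difference of 0.36 (SE 0.11) with an unadjusted limma p of 0.00356.

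Mrpl9 (chr3:94443318-94451130, plus strand) encodes a counterpart of bacterial L9. Its values were 805, 808, 844, 712 and 753 normalized counts in aged T recipients, against a lowest of 588, a median of 655 and a highest of 772 in young T recipients. Aged T replicates 4 and 5 lay within the young T range and the other 3 above it. The means were 784 ± 52.0 normalized counts for aged T and 657 ± 63.1 for young T recipients (n = 5 and 6, SD), a log2 difference of 0.26 (SE 0.08).

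Mrpl12 (chr11:120484613-120489065, plus strand) encodes the stalk protein, which recruits translation factors and in human cells is also known to bind the mitochondrial RNA polymerase. Mrpl12 had 572, 539.9, 568.5, 597 and 627 normalized counts in aged T recipients, against a lowest of 435, a median of 481 and a highest of 564 in young T recipients. Only aged T replicate 2 fell inside the young T range. The means were 581 ± 32.8 normalized counts for aged T and 491 ± 51.7 for young T recipients (n = 5 and 6, SD), a log2 difference of 0.25 (SE 0.09). Mrpl57, a protein found only in mitochondria, had a log2 difference of 0.35 (SE 0.12), with means of 379 ± 58.1 normalized counts for aged T and 297 ± 37.7 for young T recipients (n = 5 and 6, SD). Mrpl2 and Mrpl27 encode counterparts of bacterial L2 and L27, which sit near the site of peptide bond formation. Mrpl2 averaged 482 ± 46.3 normalized counts for aged T and 399 ± 37.7 for young T recipients (n = 5 and 6, SD), a log2 difference of 0.27 (SE 0.09). Mrpl27 averaged 477 ± 61.9 normalized counts for aged T and 384 ± 51.6 for young T recipients (n = 5 and 6, SD), a log2 difference of 0.31 (SE 0.11).

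Among small subunit genes, Mrps26 (chr2:130563742-130568695, plus strand), a protein found only in mitochondria, had the smallest p. It had 573, 538, 577, 531 and 677 normalized counts in aged T recipients, against a lowest of 359, a median of 480.4 and a highest of 535 in young T recipients. Only aged T replicate 4 did not exceed the highest young T library. The means were 579 ± 58.1 normalized counts for aged T and 467 ± 60.3 for young T recipients (n = 5 and 6, SD), a log2 difference of 0.32 (SE 0.11) with an unadjusted limma p of 0.00868.

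Mrps12 (chr7:28739641-28741820, minus strand) encodes the counterpart of bacterial S12, a protein of the decoding centre. Mrps12 had 257, 274, 294, 312 and 358 normalized counts in aged T recipients, against a lowest of 209, a median of 238 and a highest of 276 in young T recipients. Aged T replicates 3, 4 and 5 were above every young T library. The means were 299 ± 38.8 normalized counts for aged T and 240.4 ± 27.1 for young T recipients (n = 5 and 6, SD), a log2 difference of 0.31 (SE 0.11). Mrps23 and Mrps34, also found only in mitochondria, had log2 differences of 0.22 (SE 0.08) and 0.23 (SE 0.09).

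Mrps30 (chr13:118378381-118387252, minus strand) has a small subunit name, but in mammalian mitoribosome structures its protein sits in the large subunit. Mrps30 had 309, 329, 319.7, 335 and 345 normalized counts in aged T recipients, against a lowest of 224, a median of 285 and a highest of 307 in young T recipients. The aged T libraries were close together, and all lay above the young T libraries. The means were 327 ± 13.8 normalized counts for aged T and 277 ± 30.2 for young T recipients (n = 5 and 6, SD), a log2 difference of 0.25 (SE 0.10) with an unadjusted limma p of 0.0225.

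The 3 Mrps18 genes descend from 1 bacterial gene and differ in where their proteins sit. The protein of Mrps18a is in the large subunit, and its log2 difference was 0.20 (SE 0.08), with means of 580.2 ± 48.1 normalized counts for aged T and 504 ± 22.7 for young T recipients (n = 5 and 6, SD). Mrps18b and Mrps18c are in the small subunit, with log2 differences of 0.04 (SE 0.12) and 0.26 (SE 0.13). Mrps36 carries a ribosomal name, but its protein is now known as a subunit of the α-ketoglutarate dehydrogenase complex. Its log2 difference was 0.22 (SE 0.14), inside the range of the other members.

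Mrps2 (chr2:28468066-28471178, plus strand), the counterpart of bacterial S2, was the 1 member below 0. It had 310.1, 335, 326, 352 and 363 normalized counts in aged T recipients, against a lowest of 302, a median of 349.9 and a highest of 399 in young T recipients. All aged T values lay inside the young T range. The means were 337 ± 20.9 normalized counts for aged T and 347 ± 39.8 for young T recipients (n = 5 and 6, SD), a log2 difference of -0.03 (SE 0.10), less than its standard error.

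Genes with a bacterial counterpart had medians near those without one. With Mrps30 and Mrps18a counted where their proteins sit, all 29 large subunit genes with a counterpart were above 0 (median 0.21), as were all 20 without one (median 0.19). In the small subunit 14 of 15 with a counterpart (median 0.16) and 10 of 10 without one (median 0.16) were above 0. Mrps18a and Mrps18b were counted among those without a counterpart, although they share an origin with Mrps18c, which was counted among those with one. Mrpl55, Mrps28 and Mrps36 were put in neither class, and the difference between the classes was not tested.

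**Figure D2:**
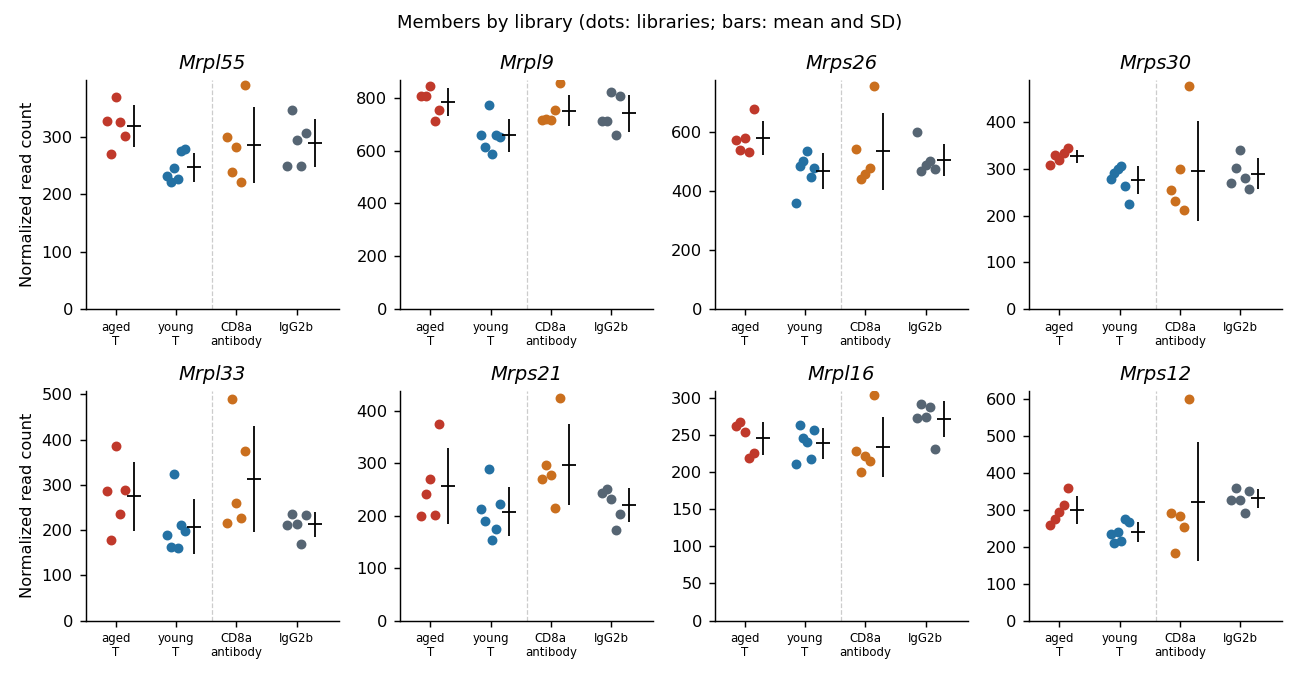
Normalized read count (vertical axis, from 0) of 8 members in every library, with the aged T and young T recipients left of the dashed line and the CD8a antibody and IgG2b mice right of it. Dots are libraries in replicate order, and bars give the mean and SD. Mrps30 has all aged T libraries at 309 or more and all young T libraries at 307 or less, and in Mrps12, Mrpl16 and most others the highest CD8a antibody dot is replicate 5.

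The members varied together across libraries, and other genes with short transcripts varied much like them. The deviation of each member from its own mean over the 11 transfer libraries was taken on the log2 scale, and the median over a subunit gave 1 value per library. For the large subunit, aged T libraries had 0.09, -0.02, 0.27, 0.03 and 0.20, and young T libraries lay between -0.25 and 0.08 with a median of -0.09. For the small subunit, aged T libraries had 0.07, -0.00, 0.17, -0.05 and 0.25, and young T libraries lay between -0.18 and 0.06 with a median of -0.09. Aged T replicates 3 and 5 were highest in both subunits, aged T replicates 2 and 4 lay within the young T range, and young T replicate 3 was the highest of its group. The 2352 other genes of 500 to 1500 nt had similar medians, of 0.08, -0.02, 0.19, -0.05 and 0.22 in the aged T libraries. In the young T libraries theirs lay between -0.15 and 0.07, with replicate 3 again highest. Of the 77 members, 59, 33, 68, 42 and 71 were above their own mean in the 5 aged T libraries, and between 8 and 54 in the young T libraries. Summed over all members, normalized counts averaged 31793 ± 2573 in recipients of aged T cells and 27798 ± 1723 in those of young T cells (SD, n = 5 and 6), with ranges of 29183 to 34832 and 25671 to 30738. For correlations the deviation of a gene was instead taken from its mean within each group, which leaves out the difference between groups. On these deviations 2 members had a mean Pearson r of 0.26, over all pairs, against 0.000376 over all tested genes. A large with a small subunit gene had 0.24. Over all genes, positive and negative pairs largely cancel in the mean, so that value does not show how unusual the r of the members is. No such value was taken for other genes of like length. This is a description over 11 libraries of 2 groups, in which all genes of a library share its depth and size factor.

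**Figure D3:**
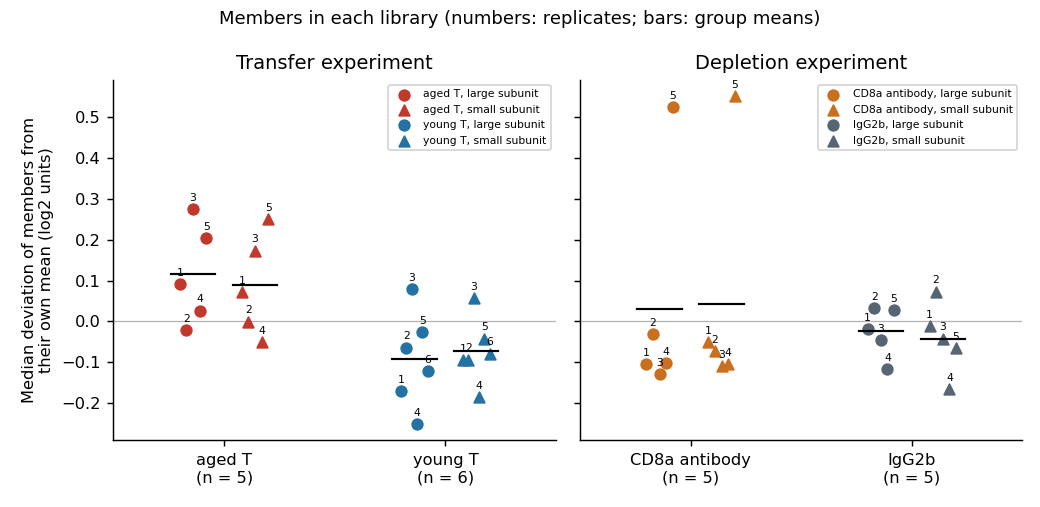
Median deviation of the members from their own mean (vertical axis, log2 units) in each library, for the large subunit (circles) and the small subunit (triangles). Numbers are replicates, and horizontal bars are group means. Aged T replicates 3 and 5 stand highest in the transfer experiment, and CD8a antibody replicate 5, at 0.52 and 0.55, stands above all other depletion libraries.

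A difference between groups went with transcript length in the transfer experiment, for members and other genes alike. Across 13992 other genes the log2 difference was lower for longer transcripts (Spearman's rho -0.49), and across the 77 members rho was -0.47, both across genes and therefore only descriptive. The median length was 1223 nt for members and 2795 nt for other genes. The other genes of 500 to 1500 nt numbered 2352, and genes over 5000 nt had a median of -0.13. The 25 members with the shortest transcripts (440.5 to 918 nt) had a median of 0.28, the 27 of 937 to 1634.5 nt 0.17, and the 25 of 1849 to 6073 nt 0.16. Subtracting the trend fitted on the other genes left a median of 0.08 over all members. These lengths are medians over annotated transcripts, so a value after subtraction is only as good as the annotated length. Among the named members with long annotated transcripts, Mrps26 (4278 nt) had a log2 difference of 0.38 after subtraction, Mrpl57 (2877 nt) one of 0.36 and Mrps30 (3319 nt) one of 0.28. Among those with short transcripts, Mrpl55 had 0.16 left, Mrpl27 0.10, Mrps34 0.06 and Mrps18a -0.01. The part that length, or a technical factor linked to it, plays in the members' differences was not tested further.

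**Figure D4:**
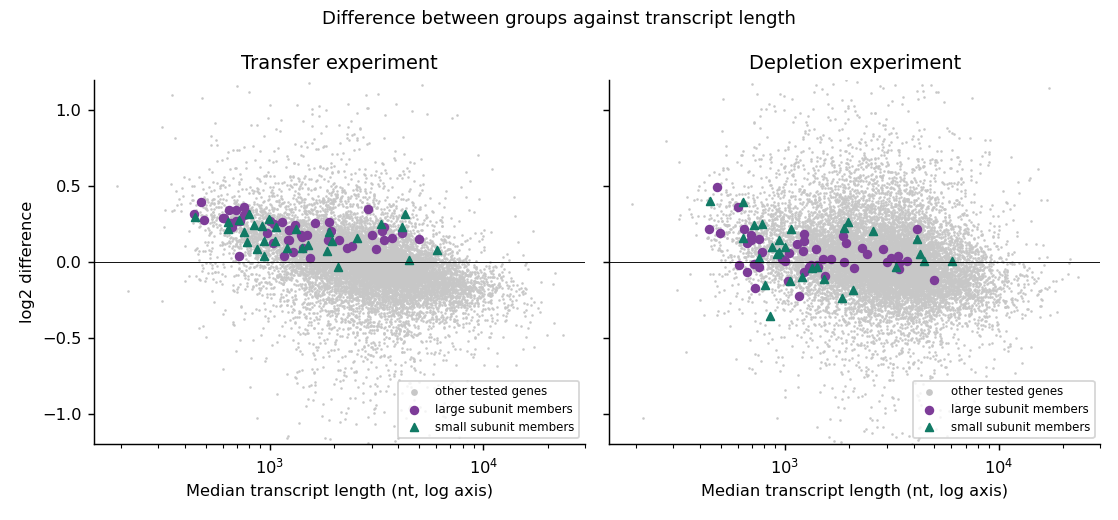
Log2 difference (vertical axis) against median transcript length (horizontal axis, log scale) for other tested genes (grey), large subunit members (circles) and small subunit members (triangles), aged T minus young T on the left and CD8a antibody minus IgG2b on the right. The axis stops at 1.2 log2 units on either side, which leaves out 28 of 14069 genes on the left and 60 of 13852 on the right. On the left most members lie between 0 and 0.40, with 58 of 77 above the trend fitted on the other genes (trend not drawn), and on the right they scatter around 0.

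Other gene groups varied in the same libraries. All 81 tested cytosolic ribosomal protein genes were above 0 in the transfer experiment (median 0.29), and 80 of 81 nuclear genes of oxidative phosphorylation (median 0.28), both with shorter transcripts than the members (medians 774 and 742 nt). The cytosolic set varied more: its median deviation was 0.61 in aged T replicate 3 and 0.33 in young T replicate 3. Of markers fixed for other cell types, 5 of 5 of oligodendrocytes were above 0 (median 0.37, summed level 44477 to 79458 for aged T mice and 38360 to 67542 for young T mice). The same held for 5 of 5 ependymal markers (median 0.74, summed level 128 to 415 for aged T mice and 81.4 to 247 for young T mice). All 5 fibroblast markers were below 0 (median -0.98, summed level 319.8 to 1663 for aged T mice and 613 to 4424 for young T mice). Choroid plexus markers were above 0 for 5 of 5 (median 0.38, summed level 2185 to 53125 for aged T mice and 2783 to 33625 for young T mice). Endothelial markers were below 0 for 4 of 5 (median -0.20, summed level 1685 to 2417 for aged T mice and 1772 to 3259 for young T mice). Of the remaining lists, 6 of 7 hippocampal neuron markers were below 0 (median -0.08), and 5 of 6 inhibitory neuron markers (median 0.08), 3 of 5 astrocyte markers (median 0.04) and 4 of 5 microglial markers (median 0.10) were above 0. The ribosomal RNA precursor Rn45s took 0.747% to 1.34% of reads for aged T mice and 0.350% to 0.795% for young T mice. The part of cell makeup or of Rn45s in the members' differences was not tested.

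Other genes that serve mitochondrial translation were read from 5 lists, whose differences from the members were not tested. Their transcripts were longer than those of the members, with medians of 1951.5 nt for mitoribosomal proteins with other symbols, 1595 nt for assembly factors, 2538 nt for translation factors, 2618.5 nt for tRNA synthetases and 1700.25 nt for genes of mitochondrial DNA expression, against 1223 nt. Of 6 mitoribosomal proteins with other symbols, 6 were above 0 (median 0.25). Gadd45gip1, whose protein lies at the exit of the peptide tunnel, had 444 ± 29.6 normalized counts for aged T and 363 ± 31.5 for young T recipients (n = 5 and 6, SD), a log2 difference of 0.29 (SE 0.09). Aurkaip1, a small subunit protein, had 690.2 ± 96.0 normalized counts for aged T and 555 ± 56.2 for young T recipients (n = 5 and 6, SD), a log2 difference of 0.31 (SE 0.10). Ict1, a peptidyl-tRNA hydrolase built into the large subunit, had a log2 difference of 0.22 (SE 0.11). Of 25 assembly factors, 17 were above 0 (median 0.10), and the smallest p belonged to Malsu1, which binds the maturing large subunit. Malsu1 had 127 ± 29.9 normalized counts for aged T and 86.8 ± 25.1 for young T recipients (n = 5 and 6, SD), a log2 difference of 0.55 (SE 0.20). The GTPases Mtg1 and Mtg2, which act late in large subunit assembly, had log2 differences of 0.22 (SE 0.10) and 0.39 (SE 0.19).

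Of 15 translation factors and activators, 9 were above 0 (median 0.06). Slirp, an RNA-binding partner of Lrpprc, had a log2 difference of 0.40 (SE 0.18), the membrane insertase Oxa1l one of 0.13 (SE 0.07), and the elongation factor Guf1 one of -0.29 (SE 0.20). Of 17 mitochondrial tRNA synthetases, 9 were above 0 (median 0.01). Lars2, the leucyl-tRNA synthetase, had a log2 difference of 1.04 (SE 0.27), with 1793 to 7043 normalized counts for aged T mice and 1146 to 1767 for young T mice. Its aged T libraries were widely spread, with means of 3079 ± 2235 for aged T and 1299 ± 235 for young T recipients (SD). Yars2 and Fars2, for tyrosine and phenylalanine, had log2 differences of 0.31 (SE 0.14) and 0.19 (SE 0.12). Of 10 genes of mitochondrial DNA replication and transcription, 6 were above 0 (median 0.09), with Tefm, an elongation factor of transcription, at 0.35 (SE 0.16), the polymerase Polg at -0.17 (SE 0.09) and the helicase Peo1 at 0.16 (SE 0.12). None of these genes passed limma at an adjusted p of 0.05 (smallest 0.600). At an unadjusted limma p of 0.05, the lists had 2 of 6, 3 of 25, 1 of 15, 2 of 17 and 1 of 10 genes higher. Of all genes 4.29% were higher. None of the lists had a lower gene, against 3.96% of all genes. Genes encoded by mitochondrial DNA were sought as symbols beginning with mt-. Neither experiment had any such symbol, so they could not be analysed.

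In the depletion experiment the balance of the members depended on 1 library, CD8a antibody replicate 5, and all libraries are taken first. The log2 difference (CD8a antibody minus IgG2b) was above 0 for 48 of 77 members (62.3%), 29 of 48 of the large and 19 of 29 of the small subunit, against 49.6% of all genes. Medians were 0.02 for the large and 0.06 for the small subunit, against -0.00204 over all genes, and single members ranged from -0.36 to 0.49. No member passed limma at an adjusted p of 0.05 (smallest 0.532), against 0.00717% of all genes, which is 1 gene. At an unadjusted limma p of 0.05, 3 of 77 members were higher, against 4.31% of all genes, and none lower, against 4.15%. The 3 became 0 without CD8a antibody replicate 2, CD8a antibody replicate 5 or IgG2b replicate 4, 1 without IgG2b replicate 5 and 5 without CD8a antibody replicate 3. With edgeR 57 of 77 members were above 0. No member had groups that did not overlap, against 0.782% of all genes higher and 1.27% lower. In the authors' deposited table no member passed the adjusted p (smallest 0.285), while 92 of the 18175 genes with a p-value did. There 3 of 77 members had an unadjusted p under 0.05, as did 1488 of the 18175 genes.

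CD8a antibody replicate 5 stood above the other libraries for most members. For the large subunit the median deviations were -0.10, -0.03, -0.13, -0.10 and 0.52 in the CD8a antibody libraries, against -0.02, 0.03, -0.05, -0.12 and 0.03 in the IgG2b libraries. For the small subunit they were -0.05, -0.07, -0.11, -0.10 and 0.55, against -0.01, 0.07, -0.04, -0.16 and -0.07. In replicate 5 all 77 members were above their own mean, and 69 of 77 (89.6%) had their highest value of the 10 libraries there, as did 25.3% of all tested genes. The median member had 1.52 times the mean of the other 4 antibody libraries. The members' summed normalized counts were 27409 to 29109 in 4 antibody libraries and 42238 in replicate 5, against 27289 to 30688 with IgG2b. Other genes of 500 to 1500 nt had a median deviation of 0.43 in this library, genes over 5000 nt -0.50, cytosolic ribosomal protein genes 0.51 and oxidative phosphorylation genes 0.60. CD8a antibody replicate 2 showed a different pattern, with cytosolic ribosomal protein genes at 0.63 and the members at -0.03 and -0.07. On deviations from group means, 2 members had a mean Pearson r of 0.58 with all libraries, over all pairs and 10 libraries. Without replicate 5 it was 0.07.

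Without CD8a antibody replicate 5 the balance of the members lay on the other side of 0. Of 77 members 22 were above 0 and 55 below (71.4%, against 51% of all genes), and the medians were -0.07 for the large and -0.08 for the small subunit. At an unadjusted limma p of 0.05, no member was higher, against 7.22% of all genes, and 6 (7.79%) were lower, against 5.97%. None passed at the adjusted p (smallest 0.209), against 0.179% of all genes. The antibody and IgG2b libraries then did not overlap for 4 members, all lower with the antibody (5.19%, against 2.72% of all genes), and for none in the other direction (2.22% of all genes).

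The 3 members with an unadjusted limma p under 0.05 were higher with the antibody. Mrpl33 (chr5:31596935-31664384, plus strand), a counterpart of bacterial L33, had the largest difference of the members. Mrpl33 had 216, 490.3, 260.1, 227 and 374 normalized counts with the CD8a antibody, against 211, 235, 214, 168 and 234 with IgG2b. Antibody replicates 2 and 5 stood above the IgG2b libraries by a wide margin, replicate 3 was also above them, and replicates 1 and 4 were within them. The means were 313 ± 117.2 normalized counts with the CD8a antibody and 213 ± 27.0 with IgG2b (n = 5 and 5, SD), a log2 difference of 0.49 (SE 0.21) with an unadjusted limma p of 0.0312, and 0.41 (SE 0.21) without replicate 5.

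Mrps21 (chr3:95862634-95871519, minus strand) encodes a counterpart of bacterial S21. Mrps21 had 269, 297, 279, 216 and 424 normalized counts with the CD8a antibody, against 243, 252, 233, 173 and 204 with IgG2b. Replicate 4 of the antibody group lay inside the IgG2b range and the other 4 above it. The means were 297 ± 77.4 normalized counts with the CD8a antibody and 221 ± 32.5 with IgG2b (n = 5 and 5, SD), a log2 difference of 0.40 (SE 0.17), and 0.27 (SE 0.14) without replicate 5.

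Mrps18c (chr5:100798627-100804471, plus strand) is the family member closest in place to bacterial S18. Mrps18c had 253, 417, 271, 312 and 492.9 normalized counts with the CD8a antibody, against 276, 267, 251, 241 and 249 with IgG2b. Antibody replicates 2, 4 and 5 were above every IgG2b library. The means were 349 ± 102 normalized counts with the CD8a antibody and 257 ± 14.2 with IgG2b (n = 5 and 5, SD), a log2 difference of 0.40 (SE 0.17), and 0.26 (SE 0.14) without replicate 5. Mrps7, a protein of the head of the small subunit, had 560.1 ± 123 normalized counts with the CD8a antibody and 460.4 ± 29.2 with IgG2b (n = 5 and 5, SD) and a log2 difference of 0.26 (SE 0.13), and 0.14 (SE 0.09) without replicate 5. Its antibody libraries held 496 to 521 except replicate 5, with 780.1.

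Mrps33, Mrps14, Mrpl17, Mrpl54, Mrpl48 and Mrpl20 also had positive differences, of 0.17 to 0.36 with all libraries and 0.11 to 0.22 without replicate 5, none with an unadjusted limma p under 0.05. Mrps36 had 0.16 (SE 0.17) with all libraries and 0.02 (SE 0.14) without replicate 5, and Mrps18b 0.06 (SE 0.15) and -0.06 (SE 0.12). Of the large subunit members with the smallest p in the transfer experiment, Mrpl55, Mrpl9, Mrpl57, Mrpl2 and Mrpl27 had log2 differences here between -0.03 (SE 0.16) for Mrpl55 and 0.15 (SE 0.17) for Mrpl27. Without replicate 5 these lay between -0.16 (SE 0.10) for Mrpl2 and -0.02 (SE 0.11) for Mrpl27. Of the small subunit members, Mrps26, Mrps23, Mrps18a, Mrps30 and Mrps34 lay between -0.04 (SE 0.15) for Mrps23 and 0.06 (SE 0.14) for Mrps26, and without replicate 5 between -0.22 (SE 0.13) for Mrps30 and -0.08 (SE 0.10) for Mrps26. These 10 were all below 0 without replicate 5, and Mrpl12 and Mrps12, the others with the smallest p, are described with their libraries.

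Mrpl16 (chr19:11770391-11774960, plus strand) encodes the counterpart of bacterial L16, near the tRNA sites of the large subunit. Mrpl16 had 229, 201, 222, 215 and 304 normalized counts with the CD8a antibody, against 273, 292, 274, 288 and 232 with IgG2b. Replicate 5 was above every IgG2b library and the other 4 antibody libraries below every one. The log2 difference was -0.23 (SE 0.13) with all libraries and -0.32 (SE 0.11) without replicate 5, where the unadjusted limma p was 0.00924.

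In Mrps12, replicate 5 held 2.37 times the mean of the other 4 antibody libraries. Mrps12 had 289.9, 184, 283, 254 and 599 normalized counts with the CD8a antibody, against 327, 358, 326, 292 and 349.9 with IgG2b. 4 antibody libraries lay below every IgG2b library and replicate 5 above them all. The log2 difference was -0.15 (SE 0.23) with all libraries and -0.41 (SE 0.14) without replicate 5.

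The same order held for Mrpl12. Mrpl12 had 511, 468, 519, 496 and 948 normalized counts with the CD8a antibody, against 588, 628, 561, 529.8 and 576 with IgG2b. Its log2 difference was -0.02 (SE 0.17) with all libraries and -0.21 (SE 0.09) without replicate 5. It held as well for Mrpl22 (chr11:58171661-58179565, plus strand), whose bacterial counterpart lines the peptide tunnel. Mrpl22 had 119, 137, 132, 124 and 248 normalized counts with the CD8a antibody, against 152, 186, 163, 149 and 175 with IgG2b. Its log2 difference was -0.17 (SE 0.19) with all libraries and -0.36 (SE 0.12) without replicate 5. Mrps6, a counterpart of bacterial S6, had a log2 difference of -0.36 (SE 0.19) with all libraries and -0.48 (SE 0.18) without replicate 5. For Mrps27, a protein found only in mitochondria, the values were -0.24 (SE 0.16) and -0.36 (SE 0.14). Mrps2 and Mrpl19 were also below 0, at -0.19 (SE 0.14) and -0.12 (SE 0.11) with all libraries and -0.25 (SE 0.13) and -0.19 (SE 0.09) without replicate 5.

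Here too the difference went with length when replicate 5 was kept. Spearman's rho with length was -0.27 across 13775 other genes and -0.28 across members, and without replicate 5 it was 0.02 and -0.13. Other genes of 500 to 1500 nt had a median of 0.09 with all libraries and 0.00211 without replicate 5. After subtraction of the trend the members had a median of -0.02, with 33 of 77 above 0, and without replicate 5 a median of -0.08, with 17 above 0. Oligodendrocyte markers were above 0 for 5 of 5 (median 0.41, and 0.61 without replicate 5), with summed levels of 43169 to 84791 in antibody mice and 41006 to 53634 in IgG2b mice. All 5 microglial markers were also above 0 (median 0.28, and 0.32 without replicate 5), as were 6 of 7 hippocampal neuron markers (median 0.25, and 0.32 without replicate 5), 5 of 5 astrocyte markers (0.23 and 0.29) and 5 of 5 endothelial markers (0.22 and 0.25). Ependymal markers were above 0 for 4 of 4 tested (0.81, and 1.08 without replicate 5) and choroid plexus markers for 5 of 5 (0.40, and 1.11 without replicate 5). The choroid plexus markers summed to 794 to 31490 normalized counts in antibody mice and 1968 to 26730 in IgG2b mice. Inhibitory neuron markers went the other way, with 5 of 6 below 0 (median -0.27) and 6 of 6 without replicate 5 (-0.20), and summed to 8275 to 12234 in antibody mice and 11884 to 13545 in IgG2b mice. Of 5 fibroblast markers 4 were above 0 (0.11, and 0.36 without replicate 5), while their sum was 323 to 882 in antibody mice and 899 to 1230 in IgG2b mice. The part of these in the members' values was not tested.

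The balance of the subunit classes with the antibody also depended on replicate 5. Of large subunit genes 17 of 29 with a bacterial counterpart and 13 of 20 without were above 0 (medians 0.02 and 0.06), and of small subunit genes 10 of 15 and 6 of 10 (medians 0.10 and 0.03). Without replicate 5 these counts were 8 of 29 and 4 of 20 (medians -0.07 and -0.07), and 7 of 15 and 1 of 10 (medians -0.02 and -0.10). The 6 mitoribosomal proteins with other symbols had 3 above 0 (median 0.05), with Chchd1, a small subunit protein, at 0.36 (SE 0.17), Ict1 at 0.28 (SE 0.16) and Ptcd3 at -0.11 (SE 0.12). Of 25 assembly factors 11 were above 0 (median -0.02), with the rRNA methyltransferase Rnmtl1 at -0.32 (SE 0.18), Mpv17l2 at 0.27 (SE 0.15) and the pseudouridine synthase Rpusd4 at 0.24 (SE 0.16).

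Of 15 translation factors 9 were above 0 (median 0.04). The release factor Mtrf1l had 67.1 ± 14.9 normalized counts with the CD8a antibody and 96.0 ± 14.8 with IgG2b (n = 5 and 5, SD), a log2 difference of -0.52 (SE 0.18) with an unadjusted limma p of 0.0123, while Guf1 was at 0.28 (SE 0.15) and Lrpprc at -0.15 (SE 0.11). Of 17 tRNA synthetases 7 were above 0 (median -0.02). The methionyl-tRNA synthetase Mars2 had 120.04 ± 8.95 normalized counts with the CD8a antibody and 94.4 ± 10.4 with IgG2b (n = 5 and 5, SD), a log2 difference of 0.35 (SE 0.14) with an unadjusted limma p of 0.0243, while Iars2 was at -0.16 (SE 0.09). Of 10 genes of mitochondrial DNA replication and transcription 8 were above 0 (median 0.12), with Ssbp1, a single-strand DNA-binding protein, at 0.23 (SE 0.16), Mterf1b at 0.54 (SE 0.38) and Peo1 at -0.13 (SE 0.13). Mtrf1l and Mars2 were the only genes of these 5 lists with an unadjusted limma p under 0.05. Of all genes 4.31% were higher and 4.15% lower at that p. None of the lists' genes passed at an adjusted p of 0.05 (smallest 0.429). Without replicate 5 the medians of the 5 lists were -0.10, -0.14, -0.01, -0.09 and 0.05. Cytosolic ribosomal protein genes were above 0 for 77 of 81 (median 0.27, and 0.17 without replicate 5), and oxidative phosphorylation genes for 67 of 81 (median 0.11, and -0.02 without replicate 5).

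The 2 experiments share no library. Of the 77 members 48 were above 0 in both, 28 were above 0 with aged T cells and below 0 with the antibody, none was the reverse, and 1, Mrps2, was below 0 in both. Without CD8a antibody replicate 5 these counts were 22, 54, 0 and 1. Since 76 of 77 members were above 0 in the transfer experiment, the members' counts mostly repeat their split in the depletion experiment. Among the 13848 genes tested in both, the counts were 3984, 2814, 2865 and 4185 with all libraries, and 3260, 3538, 3501 and 3549 without replicate 5. Across members the log2 differences of the experiments had a Pearson r of 0.41 and a Spearman's rho of 0.37, and of 0.28 and 0.24 without replicate 5. Over all genes tested in both, r was 0.115 and rho 0.205, and 0.00413 and -0.0102 without replicate 5. These are descriptions across genes, which are not independent. With all libraries the members' differences also fell with transcript length in both experiments (Spearman's rho -0.47 and -0.28). The difference between the experiments was not tested, since the age of the mice and the antibody schedule differ between them as well.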

How the data were processed

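Polyadenylated RNA of 21 hippocampal samples was sequenced strand-specifically and paired-end, per the labels' protocols. The submitters' processing notes name STAR, RSEM, DESeq2 and the mm10 build without versions or roles; which annotation and options were used is not given in the sources used here. Each experiment has 1 deposited table, which holds by gene symbol a normalized count, which is a signal made by the authors by dividing reads by 1 size factor per library. It also holds the authors' log2 fold changes, signed as control over treated, with a test score and p-values. Each library's values were whole multiples of 1 step (100% of values, relative tolerance 1e-06), from which whole reads were recovered. The least expressed member averaged 140.2 normalized counts in the transfer and 141 in the depletion experiment, and read totals speak for counting error only.

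limma 3.58.1 (limma-trend, R 4.3.3) was fitted to log2(normalized count + 1) of all genes with a mean of at least 10, each experiment alone and without covariates, with Benjamini-Hochberg adjustment over all tested genes and calls at an adjusted p under 0.05. edgeR was set as the main test had the files held raw reads, and limma for normalized ones, which they hold. A pseudocount of 1 understates differences of weakly expressed genes. edgeR 4.0.16, DESeq2 1.42.0 and limma-voom on recovered reads, other scalings, pseudocounts and filters, leaving out each library, and a trend with length (lowess, span 0.3, fitted on genes outside the members) were the alternatives. The fitting with limma, edgeR, DESeq2 and limma-voom was tried on simulated counts, with changes larger than the members' median difference. The outcome is not reported here. Lengths and positions are from GENCODE M21 (GRCm38, the mm10 build), in which 24027 symbols (98.4%) and 77 of 77 members were found. Promoters are from RefSeq (GRCm38.p6).

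The members and all gene lists were chosen with earlier results of these data known. Named are, per experiment and subunit, the 6 members with the smallest p, the 2 highest and 2 lowest per kilobase, any called, up to 3 on the other side of 0, Mrps30, Mrps36 and the Mrps18 genes, and the 3 genes with the smallest p of each pathway list, of which 1 is not reported here. Replicates are separately named samples. No label says that each came from a separate mouse, and p-values measure only the spread between these samples, which may be technical.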

Additional observations from a re-analysis of the deposited data

Results flagged for a closer look

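In 56 comparisons, each within 1 group of 5 or 6 libraries, the highest or lowest value was set against the group's range by Dixon's ratio. This ratio marks about 1 comparison in 20 by chance, and 5 values were marked. CD8a antibody replicate 5 lay far above the rest of its group in the median deviation of the large subunit members (0.52, the other 4 between -0.13 and -0.03) and of the small subunit members (0.55, the other 4 between -0.11 and -0.05). The same library had 780.1 normalized counts of Mrps7, against 496 to 521 in the other 4, and 304 of Mrpl16, against 201 to 229 in the other 4. The 56 comparisons do not cover all members, so members that were not marked can stand apart there as well. Mrpl12, not marked, had 948 in this library, against 468 to 519 in the other 4. In all, 69 of 77 members had their highest value there. Young T replicate 3 had 548 normalized counts of Mrps18a, against 484 to 503 in the other 5 libraries of its group.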

How the results depend on the processing

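No member passed an adjusted p of 0.05 in either experiment under any alternative. In the transfer experiment, members higher at an unadjusted p of 0.05 numbered 25 to 28 under other pseudocounts, filters, scalings and tools, and 11 to 37 when 1 library was left out, with 11 without aged T replicate 5 and 16 without young T replicate 4. Members above 0 numbered 73 to 77 with 1 library left out and 58 after subtraction of the length trend. Subunit medians were 0.17 to 0.25 (large) and 0.14 to 0.22 (small) with 1 library left out, and 0.09 and 0.058 without the length trend. Without that trend Mrps18a was at -0.0078, and in the depletion experiment Mrpl20 at -0.027. Mrps2 was at 0.0079 without young T replicate 2, in a range of -0.072 to 0.0079 over libraries left out.

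In the depletion experiment, members at an unadjusted p of 0.05 numbered 0 to 5 higher and 0 to 6 lower with 1 library left out (0 higher without CD8a antibody replicate 2 or 5 or IgG2b replicate 4, 1 without IgG2b replicate 5, 5 without CD8a antibody replicate 3, and 6 lower without CD8a antibody replicate 5). Members above 0 numbered 22 (without CD8a antibody replicate 5) to 62, 57 with edgeR and 33 without the length trend. Subunit medians were -0.07 to 0.07 (large) and -0.08 to 0.12 (small) with 1 library left out. The causes were not tested. No paired analysis was possible because replicate numbers were given in sample order and tie no samples together. Standard errors per member were 0.078 to 0.199 in the transfer and 0.101 to 0.231 in the depletion experiment, which limits what single genes can show.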
